A study of Mus musculus with 4 samples.

Results

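The Wnt pathway genes described here are 64 genes of the 31053 in the deposited count matrices. They comprise 19 Wnt ligands, 3 genes of ligand processing, 10 Frizzled receptors, 5 other receptors and co-receptors, 9 genes of the R-spondin axis, 10 secreted antagonists, 3 feedback inhibitors and 5 nuclear effectors. They were chosen by name and function and not by a limit on any measured value, though with earlier results of these data known. Single-nucleus RNA-seq (snRNA-seq) was performed on medulla-enriched kidney slices of 4 male mice aged 12 weeks, with 1 library per mouse. The 2 knockout mice carried Hoxb7Cre together with homozygous floxed *Tfap2a* (Hoxb7Cre+;Tfap2a fl/fl), and the 2 control mice were littermates that carried the same floxed alleles without Cre. Hoxb7Cre acts in the ureteric lineage, from which the collecting duct arises, so that loops, vessels and interstitium of the knockout mice keep an intact *Tfap2a*. *Tfap2a* encodes the transcription factor AP-2alpha. The comparison asks how these genes are distributed over the nuclei of the slices, which also held cell types of the cortex. It also asks whether the level of the genes in collecting duct principal cells (CD-PCs) differed between the genotypes.

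Wnt ligands are lipid-modified secreted proteins that act on nearby cells. A ligand joins a Frizzled receptor with a co-receptor, Lrp5 or Lrp6, which stops the destruction of beta-catenin and lets it act with TCF/LEF factors on target genes. Ligands can also signal without beta-catenin, through receptors such as Ror1, Ror2 and Ryk. R-spondins, bound by Lgr receptors, keep the ubiquitin ligases Rnf43 and Znrf3 from removing Frizzleds, whereas Sfrp, Dkk and Wif proteins hold ligands or co-receptors back. In the kidney, *Wnt9b* from the ureteric bud induces the nephron progenitors, *Wnt4* drives their conversion to epithelium, and *Wnt7b* from the collecting duct is needed for the medulla to form.

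In total 27343 nuclei passed the filters, between 5430 and 7998 per mouse, with a median of 2628 UMIs and 1578 genes. They were taken from libraries of 22179410 to 44964099 UMIs. Mitochondrial UMIs made up a median of 1.66% and 0.671% in nuclei of controls, compared with 1.05% and 0.417% in nuclei of knockouts, and 75 barcodes occurred in more than 1 library. Clusters were named from marker genes, and no member of the Wnt set was used for clustering. Besides CD-PCs and intercalated cells (CD-IC), the epithelial classes were the connecting tubule (CNT), the distal convoluted tubule (DCT), the thick (TAL) and thin (tL) limbs of the loop of Henle, the proximal tubule (PT), podocytes (Podo) and the deep medullary epithelium of the pelvis (DMEP). Interstitium (IntC), endothelium (EC) and immune cells (ImC) made up the rest. CD-PC nuclei split into 249 nuclei like the cortical collecting duct (CCD-like), 647 like the inner medullary collecting duct (IMCD-like) and 305 nuclei with the highest *Aqp3* level, named Aqp3-high principal cells (55, 124, 88 and 38 nuclei in control 1, control 2, knockout 1 and knockout 2). *Aqp3*, a water channel of the basolateral membrane, stood at 1848 CPM (UMIs summed over the nuclei of a class and scaled to a common total) in the Aqp3-high nuclei and at 289 CPM in the CCD-like nuclei. The sodium channel subunit *Scnn1b* was detected in 76.7% of the Aqp3-high nuclei. A set of 1530 nuclei (5.6%) with signs of damage or mixed markers was left out of all classes.

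*Tfap2a* itself could not check the genotype, because Cre removes exons 5 and 6 while these libraries read the 3′ end of transcripts. In Aqp3-high nuclei *Tfap2a* was 123 and 144 CPM in controls against 88.5 and 125 CPM in knockouts, so the groups overlapped (log2 fold change −0.43, SE 0.33).

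The ligands *Wnt9b* and *Wnt4* marked principal cells in different ways. *Wnt9b* was present in all CD-PC classes, with the lowest control mean in the CCD-like one, and near absent elsewhere. Its mean in control mice was 113 ± 46.5 CPM in IMCD-like nuclei, 104 ± 2.44 CPM in Aqp3-high nuclei and 75.7 ± 17.4 CPM in CCD-like nuclei (SD, n = 2 mice each). The neighbours in this order lay within the spread of the control mice in the IMCD-like class. Both CCD-like controls were nevertheless below both Aqp3-high controls. Outside CD-PCs the pooled control level of *Wnt9b* did not exceed 7.27 CPM, reached in DMEP, and was 1.08 CPM in PT. Barcodes with under 100 UMIs, which hold free RNA, gave 2.38 to 13.98 CPM of *Wnt9b* in the 4 libraries. The level of each class outside CD-PCs was within or under this range. Such a range describes free RNA alone. A class with no RNA of its own for a gene would reach it only if all its UMIs were free RNA. A *Wnt9b* UMI was seen in 41.1% of IMCD-like nuclei, 22.3% of Aqp3-high nuclei, 10.0% of CCD-like nuclei and 0.290% of PT nuclei, whose median depths were 4397, 3173, 2159 and 3190 UMIs. When each nucleus was thinned to 1000 UMIs, these shares were 12.2%, 8.55%, 7.0% and 0.0737%.

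*Wnt4*, in contrast, was mostly in the IMCD-like nuclei among the CD-PC classes. Its mean in control mice was 75.0 ± 0.60 CPM in CCD-like nuclei, 44.2 ± 0.70 CPM in Aqp3-high nuclei and 884 ± 53.7 CPM in IMCD-like nuclei (SD, n = 2). The free RNA level of *Wnt4* was 19.05 to 53.0 CPM, a range that held the Aqp3-high level, while the IMCD-like level stood far above it. What part of the Aqp3-high level is free RNA was not measured. The IMCD-like nuclei formed 3 subclusters that differ in *Fxyd4*, a regulator of the sodium pump, and *Wnt4* was 642 CPM in the one with high *Fxyd4*, 969 CPM in the middle one and 1013 CPM in the one with low *Fxyd4* (control mice pooled). *Wnt4* was also present outside principal cells, at 483 ± 12.5 CPM in DMEP. Intercalated cells that secrete base carry the exchanger *Slc26a4* and those that secrete acid carry *Slc4a1*, and *Wnt4* was 160 ± 71.8 CPM in the *Slc26a4* subset and 19.5 ± 9.93 CPM in the *Slc4a1* subset (SD, n = 2 control mice). A *Wnt4* UMI was found in 93.7% of IMCD-like nuclei, 13.1% of Aqp3-high nuclei and 0.855% of PT nuclei, and thinned to 1000 UMIs in 55.4%, 4.93% and 0.251%.

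**Figure D1:**
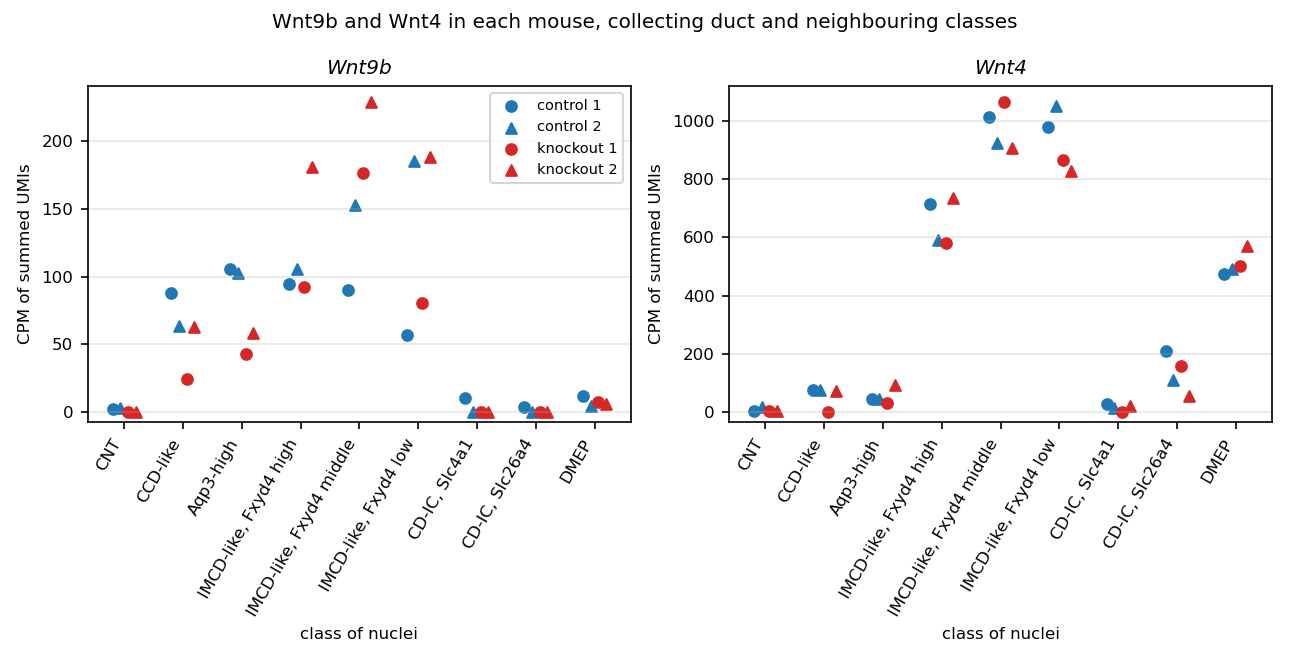
Each point is the level of *Wnt9b* (left) or *Wnt4* (right) in 1 mouse, as CPM of UMIs summed over the nuclei of a class, with control mice in blue and knockout mice in red. *Wnt9b* stands near 0 in the CNT, CD-IC and DMEP classes and is lower in both knockout mice in the Aqp3-high class, and *Wnt4* has its highest points in the IMCD-like subclusters and DMEP.

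The promoters of the 2 ligands and of *Tcf7l1*, a TCF factor that was lower in both knockout mice in Aqp3-high principal cells, are shown because AP-2 factors bind the palindrome GCCNNNGGC. The stretches are the 250 bases before the RefSeq start site (GRCm38.p6, the sequence of mm10), 5′ to 3′ on the gene's strand, with any GCCNNNGGC match in capitals. The *Wnt9b* stretch lies at chr11:103749822-103750071 on the minus strand, that of *Wnt4* at chr4:137277385-137277634 on the plus strand and that of *Tcf7l1* at chr6:72789046-72789295 on the minus strand.
Wnt9b: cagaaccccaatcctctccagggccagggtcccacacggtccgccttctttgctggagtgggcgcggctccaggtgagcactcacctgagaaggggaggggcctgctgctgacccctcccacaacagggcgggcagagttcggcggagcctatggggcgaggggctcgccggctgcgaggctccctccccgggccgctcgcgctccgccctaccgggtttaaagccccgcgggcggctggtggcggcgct
Wnt4: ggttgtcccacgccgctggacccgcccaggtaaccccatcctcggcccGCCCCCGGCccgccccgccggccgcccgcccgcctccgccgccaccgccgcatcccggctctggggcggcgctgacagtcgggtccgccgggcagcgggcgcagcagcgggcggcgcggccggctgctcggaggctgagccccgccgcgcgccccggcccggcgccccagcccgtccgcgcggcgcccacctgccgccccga
Tcf7l1: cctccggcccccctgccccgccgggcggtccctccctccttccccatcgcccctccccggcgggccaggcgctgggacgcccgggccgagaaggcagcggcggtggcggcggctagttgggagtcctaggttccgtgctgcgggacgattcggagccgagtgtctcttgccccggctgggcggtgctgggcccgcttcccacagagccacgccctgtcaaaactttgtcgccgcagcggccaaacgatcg
The RefSeq gene span of *Wnt9b* is chr11:103727362-103775272, so that this start lies inside it. The *Wnt4* stretch holds 1 match, which begins 202 bases before the start, and neither the *Wnt9b* nor the *Tcf7l1* stretch holds one. Among other members that were lower in both knockout mice in Aqp3-high nuclei, *Lgr4* has a match that begins 32 bases before its start, and *Fzd4* has one as well. *Fzd1*, *Rnf43* and *Tcf7l2*, which were also lower there, have no match, and *Fzd6* and *Lrp5* have no promoter stretch to search. The GC content of the *Wnt9b*, *Wnt4* and *Tcf7l1* stretches is 72.0%, 85.2% and 73.6%, respectively. The RefSeq table has promoters of 44 of the 64 members, some with several starts, and 17 of their 54 stretches (31.5%) contain the palindrome, against 4509 of 32851 stretches (13.7%) of all genes. The TCF motif CTTTGAT, searched on both strands, is in 2 of the 54 and in 3.21% of all stretches. A match is a run of letters and not a measured binding site, and the base composition of the 2 sets was not matched.

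Of the other ligands, *Wnt7b* was spread over the inner medulla. It was 199 CPM in IMCD-like nuclei (182 to 214 CPM over the 4 mice), 171 CPM in tL, 113 CPM in DMEP and 87.9 CPM in Aqp3-high nuclei. *Wnt5a*, a ligand that mostly signals without beta-catenin, was 45.9 CPM in tL and 35.3 CPM in IntC. *Wnt5b* was 79.5 CPM in Podo and 30.9 CPM in PT. Both *Wnt5a* and *Wnt10a* had their highest pooled level in an unnamed cluster of 174 nuclei led by *Nrip3* (107 and 123 CPM, with *Wnt7b* at 255 CPM), and 106 of those nuclei came from control 2. *Wnt1* and *Wnt3* had no UMI, and 10 of the 19 ligands had under 50 UMIs in all kept nuclei. Ligands that share a chromosome stretch differed in level. *Wnt9b* and *Wnt3* overlap by 1098 bases on chromosome 11 and had 634 and 0 UMIs, and *Wnt6* and *Wnt10a*, 6696 bases apart on chromosome 1, had 21 and 81 UMIs.

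In ligand processing, *Wls*, which carries ligands to the cell surface, ran from 120 CPM in an unnamed cluster led by *Sox17* to 694 CPM in ImC. Its free RNA level was 181 to 311 CPM, and 13 of the 20 classes stood above this range and 7, EC and IntC among them, within or under it. In CD-PCs *Wls* was 659 CPM in CCD-like, 603 CPM in Aqp3-high and 317 CPM in IMCD-like nuclei, and within the latter 455.8, 295.7 and 205.9 CPM in the subclusters of high, middle and low *Fxyd4*. *Notum*, an enzyme that removes the lipid from ligands, was 59.7 CPM in PT and did not exceed 36.3 CPM in any other class.

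**Figure D2:**
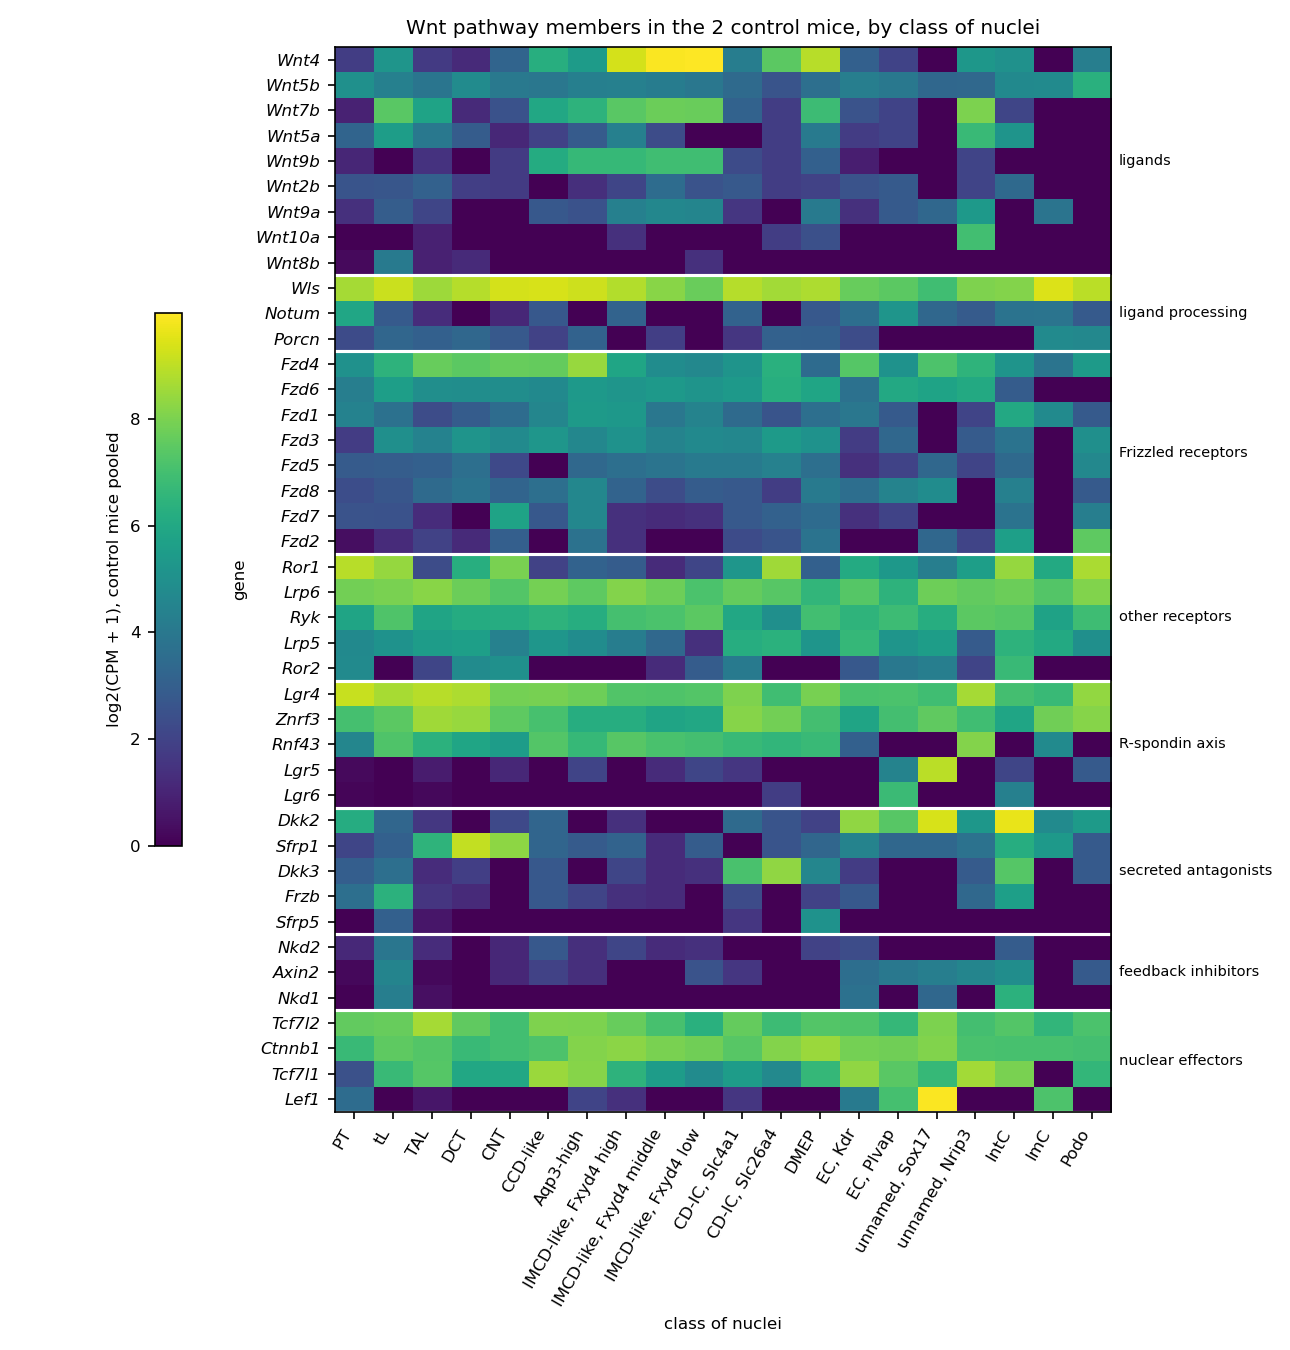
The colour gives log2(CPM + 1) of the pooled control mice for each member with at least 50 UMIs (rows, ordered by role) in each of 20 classes of nuclei (columns). *Lgr4*, *Wls*, *Lrp6* and *Tcf7l2* have UMIs in every class, in some at no more than their free RNA level, whereas *Lgr6* and *Lgr5* show 1 bright class each.

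Among the Frizzled receptors, *Fzd4* had its highest level in Aqp3-high nuclei. *Fzd4* was 345 CPM there, 198 CPM in CCD-like, 204 CPM in CNT, 202 CPM in TAL and 35.7 CPM in IMCD-like nuclei, against a free RNA level of 39.2 to 77 CPM. The IMCD-like level of *Fzd4* lay under this range, which alone does not tell whether these nuclei hold *Fzd4* RNA of their own. *Fzd2* was 183 CPM in Podo and 48.1 CPM in IntC, *Fzd1* was 64.1 CPM in IntC and *Fzd7* was 54.6 CPM in CNT. *Fzd9* and *Fzd10* had 13 and 4 UMIs in all.

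The co-receptor *Lrp6* ran from 87.8 to 296 CPM, above its free RNA level of 111 to 158 CPM in 17 of the 20 classes, while *Lrp5* was 101 CPM in EC with *Kdr*, 37.4 CPM in CCD-like and 9.56 CPM in IMCD-like nuclei. *Ror1*, a receptor tyrosine kinase bound by Wnt5a, split the collecting duct. It was 406 ± 123 CPM in the *Slc26a4* subset of intercalated cells, 29.6 ± 41.9 CPM in the *Slc4a1* subset, 258 ± 78.1 CPM in CNT and 3.62 ± 3.75 CPM in IMCD-like nuclei (SD, n = 2 control mice). All 4 mice had a higher *Ror1* level in the *Slc26a4* subset (lowest 232 CPM) than any mouse in the *Slc4a1* subset (highest 59.3 CPM), where the free RNA level was 51.3 to 119 CPM. Outside the collecting duct *Ror1* was 482 CPM in PT, 342 CPM in tL and 340 CPM in IntC. *Ror2* was 109 CPM in IntC, and *Ryk* was 148 CPM in IMCD-like nuclei and 164 CPM in IntC.

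In the R-spondin axis the receptor *Lgr4* ran from 107 CPM in ImC to 570 CPM in PT. Its free RNA level of 192 to 335 CPM was exceeded in 5 of the 20 classes (PT, TAL, DCT, tL and the cluster led by *Nrip3*), and *Lgr4* was within or under it in Aqp3-high (221 CPM) and IMCD-like nuclei (153 CPM). *Lgr5* was 497 CPM in the unnamed cluster of 80 nuclei led by *Sox17*, in which all 9 endothelial markers were detected, and at most 21.2 CPM elsewhere. *Lgr6* was 112 CPM in EC with *Plvap*, from 31 and 6 UMIs in the 2 control mice. The ligand *Rspo3* was 57.7 CPM in IntC, from 9 UMIs in each control mouse, and *Rspo4* had none. *Rnf43*, which removes Frizzleds from the membrane, was 144 CPM in IMCD-like, 102 CPM in Aqp3-high and 158 CPM in CCD-like nuclei. Its partner *Znrf3* was 378 CPM in TAL and 63.4 CPM in IMCD-like nuclei.

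Secreted antagonists were mostly held by other cell types than principal cells. *Dkk2* was 813 ± 105 CPM in IntC and 341 ± 105 CPM in EC with *Kdr*, and *Sfrp1* was 544 ± 8.85 CPM in DCT and 310 ± 44.6 CPM in CNT (SD, n = 2 control mice). *Dkk3* was 344 ± 88.5 CPM in the *Slc26a4* subset and 124 ± 85.2 CPM in the *Slc4a1* subset of intercalated cells, and 164 CPM in IntC. *Wif1*, which binds ligands directly, was 147 CPM in Podo, from 11 and 13 UMIs in the controls, *Frzb* was 85.0 CPM in tL and *Sfrp5* was 33.5 CPM in DMEP. In Aqp3-high nuclei *Sfrp1* was 6.28 CPM, under its free RNA level of 35.2 to 81.6 CPM, *Dkk3* had 1 UMI in the 4 mice together and *Dkk2* had 0, which allows a level of up to 2.82 CPM.

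Feedback inhibitors that beta-catenin induces in many tissues had few UMIs in total. *Axin2*, *Nkd1* and *Nkd2* had 128, 103 and 166 UMIs in all. The highest pooled levels of *Axin2* and *Nkd1* were in IntC (28.9 and 83.4 CPM), and both were under 3 CPM in Aqp3-high and IMCD-like nuclei. Of the nuclear effectors, *Tcf7l1*, which often acts as a repressor, was 357 CPM in CCD-like, 286 CPM in Aqp3-high and 52.3 CPM in IMCD-like nuclei and 318 CPM in EC with *Kdr*. *Tcf7l2* was 395 CPM in TAL, 260 CPM in Aqp3-high and 138 CPM in IMCD-like nuclei. *Lef1* was 975 CPM in the cluster led by *Sox17* and 147 CPM in ImC. *Ctnnb1*, which encodes beta-catenin, stayed between 108 and 355 CPM over the 20 classes, with a free RNA level of 179 to 240 CPM.

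The genes whose level over the 20 classes in control mice was most like that of *Wnt9b* were *Ptprh*, *Aqp4*, *Elf5*, *Adgra1* and *Nipal1*, with Pearson's r of 0.96, 0.93, 0.93, 0.92 and 0.92 on log2(CPM + 1) among 15038 genes. Those most like *Wnt4* were *Ube2z*, *Krt23*, *Zdhhc3*, *Fam171a2* and *Katna1*, with r of 0.92, 0.90, 0.88, 0.87 and 0.87. The r between *Wnt9b* and *Wnt4* was 0.76. The classes share libraries and differ in depth, and 3 of them are IMCD-like subclusters, so these values only describe likeness.

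Knockout and control mice were then compared within classes, on UMIs summed per mouse. Over 14 classes that share no nucleus, 52 members had enough UMIs to be tested in 1 class or more, in 347 tests, and 12 had too few in all. None of the 347 tests was called by edgeR's quasi-likelihood test at a Benjamini-Hochberg adjusted p under 0.05 (11 of 149081 tests over all genes, 0.00738%), and none by DESeq2. The smallest adjusted p of a member was 0.919. At an unadjusted p under 0.05 there were 20 members' tests (5.76%), against 3.08% of all tests. Of the 76 other pathway genes, 0 of 734 tests were called by edgeR, 23 had an unadjusted p under 0.05, and the smallest adjusted p was 0.408. Replicates are single mice, and the labels do not say which litter or day they share.

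In Aqp3-high principal cells more members had a lower than a higher level in the knockout mice, but no single one passed the test. Of the 23 members tested, 17 had a log2 fold change (knockout minus control) below 0 and 6 above, with a median of −0.41, against −0.01 for all 9930 genes tested. No member was called by edgeR (background 0.0101%) or DESeq2, and 2 had an unadjusted p under 0.05 (background 4.18%). For 9 members both knockouts were below both controls, namely for *Wnt9b*, *Tcf7l1*, *Tcf7l2*, *Lgr4*, *Rnf43*, *Fzd1*, *Fzd4*, *Fzd6* and *Lrp5*, where 15.8% of all genes did so. No member lay above both control mice (background 16.5%). More members below 0 than above were counted in 11 of the 14 classes, also outside the Cre lineage, with 18 of 22 in DCT (median −0.15), 21 of 32 in EC (median −0.21), 24 of 36 in tL (median −0.18) and 9 of 14 in Podo (median −0.35), where the medians of all genes lay between −0.01 and 0.00. Whether Aqp3-high principal cells differ from these classes as a set was not tested. Members measured in 1 mouse share its library and are not independent of each other. Without knockout 2, which has the fewest nuclei, 15 of 22 members lay below both controls, where 30.3% of all genes did. In nuclei with under 1% mitochondrial UMIs it was 4 of 20 members (11.7% of all genes), and *Wnt9b*, *Lrp5* and *Rnf43* were among them, but control 1 keeps only 3 Aqp3-high nuclei (12180 UMIs) under this limit.

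*Wnt9b* counted 19 and 47 UMIs in Aqp3-high nuclei of controls, and 13 and 7 UMIs in those of knockouts. This equals 106 and 103 CPM in controls and 42.6 and 58.4 CPM in knockouts, which do not overlap. Its log2 fold change was −1.13 (SE 0.39, adjusted p = 0.999 by edgeR), and it is 1 of the 2 members with an unadjusted p under the threshold. A *Wnt9b* UMI was seen in 27.3% (Wilson 95% interval 17.3 to 40.2%) and 28.2% (21.1 to 36.7%) of control nuclei and in 13.6% (7.98 to 22.3%) and 15.8% (7.44 to 30.4%) of knockout nuclei, at median depths of 3133, 3348.5, 2988.5 and 2813 UMIs. These intervals cover counting error only.

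*Tcf7l1* was 329 and 269 CPM in controls and 200 and 150 CPM in knockouts in the Aqp3-high class, with no overlap (log2 fold change −0.72, SE 0.29, adjusted p = 0.999 by edgeR), and it is the other member with an unadjusted p under the threshold. *Fzd4* was 352 and 343 CPM in controls and 311 and 133 CPM in knockouts, so that knockout 2 stood apart from the other mice. *Lgr4* was 229 and 218 CPM in controls against 184 and 133 CPM in knockouts, and *Rnf43* was 117 and 96.1 CPM against 78.7 and 83.4 CPM, both without overlap, though only *Rnf43* stood above its free RNA level (13.6 to 18.3 CPM) in all 4 mice. *Tcf7l2* was 268 and 258 CPM in controls, 161 CPM in knockout 1 and 250 CPM in knockout 2, so the distance of knockout 2 from the controls was small. The remaining Frizzleds of the 9 were sparse, since *Fzd1* had 7 and 20 UMIs in controls and 9 and 1 in knockouts and *Fzd6* had 7 and 19 against 7 and 2. *Lrp5* had 3 and 15 UMIs in controls and 3 and 1 in knockouts. *Wls* overlapped, at 480 and 651 CPM in controls and 331 and 709 CPM in knockouts, and so did *Lrp6*, *Ctnnb1* and *Znrf3*. *Wnt7b* was 67.0 and 96.1 CPM in controls and 59.0 and 75.1 CPM in knockouts, which overlap, and in IMCD-like nuclei it was 182 and 214 CPM against 187 and 205 CPM. *Wnt4*, near its free RNA level in this class, was 44.7 and 43.7 CPM in controls and 32.8 and 91.7 CPM in knockouts.

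**Figure D3:**
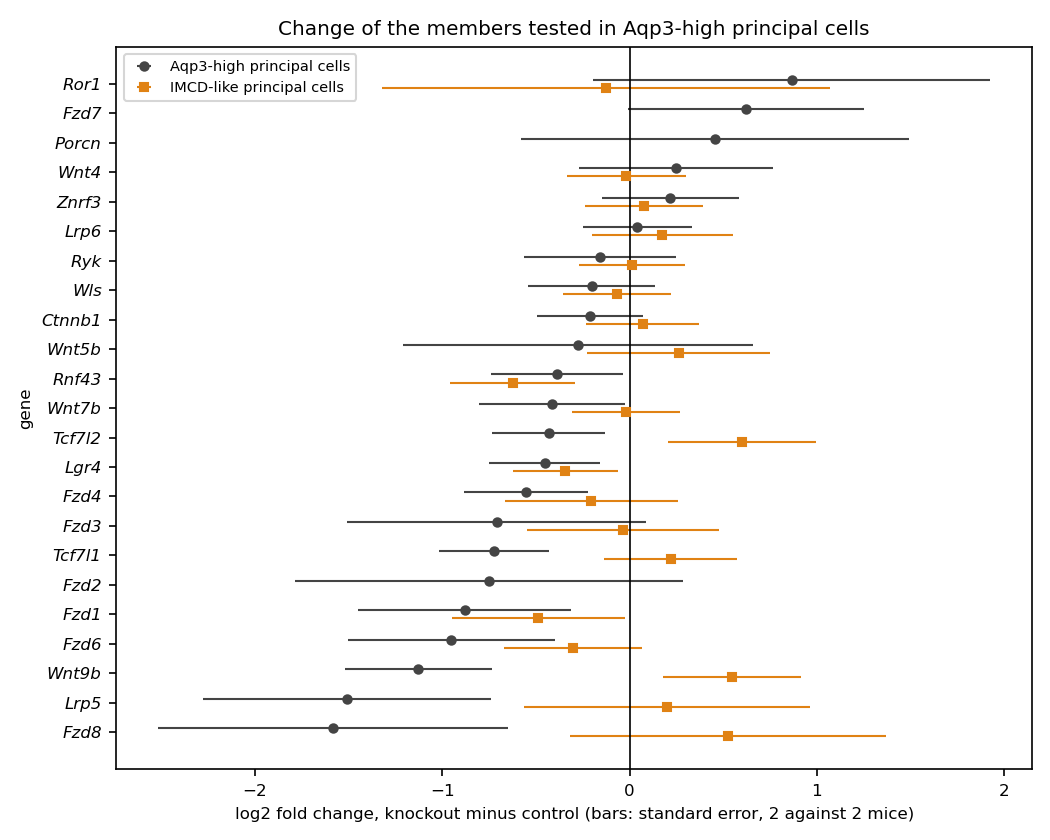
Points are the log2 fold changes of the 23 members tested in Aqp3-high principal cells (circles), ordered by size, with the same gene in IMCD-like principal cells where it was tested there (squares), and bars are standard errors. In the Aqp3-high class 17 of the 23 lie left of 0, and the IMCD-like values of *Wnt9b* and *Tcf7l2* lie right of it.

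In IMCD-like principal cells the mean of *Wnt9b* was higher in the knockouts, within the spread of the mice, and *Wnt4* was level. *Wnt9b* was 80.6 and 146 CPM in controls against 133 and 203 CPM in knockouts, which overlap (log2 fold change 0.55, SE 0.37, and 0.17 without control 1 or 1.10 without control 2). *Wnt4* was 922 and 846 CPM in controls and 927 and 819 CPM in knockouts, with a log2 fold change of −0.02 (SE 0.32). *Tcf7l1* was 60.7 and 44.6 CPM in controls and 46.3 and 76.99 CPM in knockouts, and *Tcf7l2* 88.9 and 184 CPM against 161 and 259 CPM, and both overlap. Of 26 members tested, 10 had a fold change above 0 and 16 below (median −0.05), none was called by edgeR (background 0%) or DESeq2, and 1 had an unadjusted p under 0.05 (background 1.71%). This was *Sfrp1*, with 5 and 5 UMIs in the controls and 0 in both knockouts. The free RNA level of *Sfrp1*, a gene of DCT and CNT in these data, was 35.2 to 81.6 CPM, above the 5.23 and 4.84 CPM of IMCD-like control nuclei. The knockout mice lay below both controls for 6 members (background 14.5%) and above for 0 (background 12.5%).

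CCD-like principal cells, with 41, 111, 42 and 55 nuclei, gave 18 tested members. Of these 15 had a log2 fold change below 0 and 3 above, with a median of −0.50, against 0.00 for all genes. The knockout mice lay below both controls for 10 members (background 15.4%) and above for 1 (background 14.1%), none was called by edgeR (background 0%) or DESeq2, and 3 had an unadjusted p under 0.05 (background 2.44%). *Tcf7l1* was 440 and 332 CPM in controls and 110 and 244 CPM in knockouts (log2 fold change −1.04, SE 0.47), the same direction as in the Aqp3-high class, and the change was −0.60 without knockout 1 and −1.83 without knockout 2. *Lrp5* had 2 and 11 UMIs in controls and 1 and 0 in knockouts, and *Fzd7* had 2 and 0 UMIs in controls and 5 and 5 in knockouts, so both rest on few molecules. *Wnt9b* was 88.0 and 63.4 CPM in controls and 24.6 and 63.0 CPM in knockouts, where knockout 2 nearly met control 2. The class depends on the clustering, since control 2 had 69 CCD-like nuclei at a higher resolution and 127 without integration. At the higher resolution the log2 fold change was −1.08 for *Tcf7l1*, −1.58 for *Lrp5* (−2.70 in the clusters used here) and 2.40 for *Fzd7* (2.79). The counts of members by direction were not made for the other clusterings of this class.

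**Figure D4:**
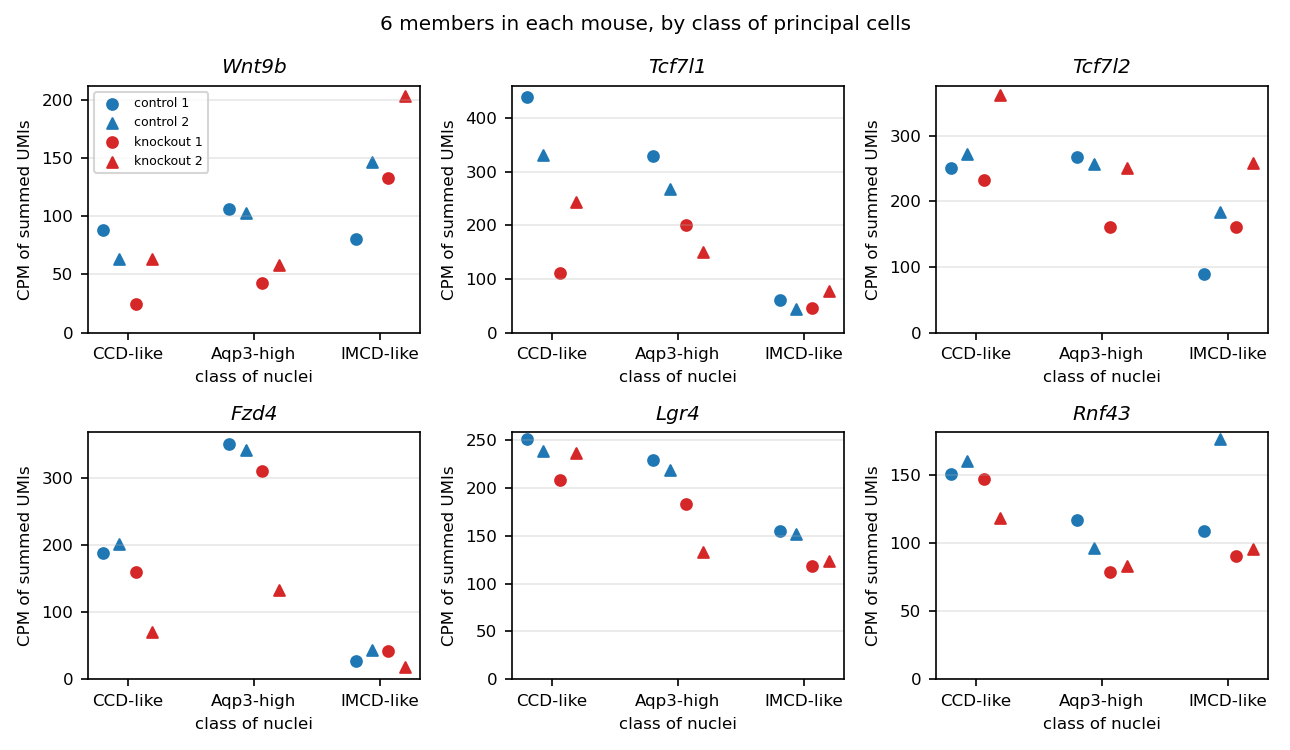
Each panel gives 1 member as CPM of summed UMIs in each mouse (control mice blue, knockout mice red) for the CCD-like, Aqp3-high and IMCD-like classes, on an axis that starts at 0. *Wnt9b* and *Tcf7l1* were lower in both knockout mice in the CCD-like and Aqp3-high classes and overlapped in the IMCD-like class.

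Whether the change differs between Aqp3-high and IMCD-like principal cells was tested directly, with 29 members in the fit. None was called by edgeR (background 0.0312%) or DESeq2, and 3 had an unadjusted p under 0.05 (background 3.40%), namely *Wnt9b*, *Tcf7l2* and *Tcf7l1*. The difference of the log2 fold changes (Aqp3-high minus IMCD-like) was −1.56 for *Wnt9b* (SE 0.48, adjusted p = 0.673 by edgeR). It was −1.01 for *Tcf7l2* (SE 0.38) and −0.94 for *Tcf7l1* (SE 0.42), each with an adjusted p of 1 by edgeR. The value of *Tcf7l1* was −1.63 without knockout 1 and −0.40 without knockout 2. For *Wnt4* it was 0.22 (SE 0.49).

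With all CD-PC nuclei summed, 30 members were tested, of which 7 lay below both controls (background 13.4%) and 1 above (background 13.4%). None was called by edgeR (background 0%; DESeq2 was not run on this sum), and 1 had an unadjusted p under 0.05 (background 2.24%). This was the receptor *Fzd7*, with 12 and 8 UMIs in controls and 19 and 9 in knockouts (9.88 and 4.55 CPM against 21.5 and 13.3 CPM). *Fzd7* had at most 2 UMIs per mouse in IMCD-like nuclei, which numbered 214, 222, 111 and 100 in the 4 mice, so that the CD-PC sum also moves with the mix of its classes. *Wnt9b* was 84.8 and 122 CPM in controls and 91.7 and 151 CPM in knockouts and overlapped.

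The other pathway genes of Aqp3-high nuclei were nearly even in direction. Of 53 tested, 29 had a fold change above 0 and 24 below (median 0.12), with 11 above both controls (background 16.5%) and 5 below (background 15.8%). By group, 9 of 14 planar cell polarity genes had a fold change above 0, as had 9 of 11 beta-catenin cofactors 5 of 17 genes of the Dishevelled and destruction complex group and 4 of 8 other Wnt modulators. Of 10 listed beta-catenin targets only 3 had enough UMIs, of which 2 were above 0. None of these genes was called by edgeR or DESeq2, and 1 had an unadjusted p under 0.05, *Celsr1*, a cadherin of planar cell polarity, with 33.5 and 28.4 CPM in controls and 65.6 and 58.4 CPM in knockouts.

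Outside the Cre lineage, IntC had the most members at an unadjusted p under 0.05, 4 of 28 (background 3.59%), and these are named after their values were seen. None was called by edgeR (background 0%) or DESeq2. *Dkk2* was 739 and 887 CPM in control and 435 and 377 CPM in knockout interstitium (log2 fold change −1.02, SE 0.40), and *Wls* was 250 and 315 CPM against 126 and 168 CPM, mostly within or under its free RNA level of 181 to 311 CPM. *Sfrp2* counted 0 and 2 UMIs in controls and 6 and 8 in knockouts. *Sfrp4* had 20 UMIs, all in knockout 2. The free RNA level of *Dkk2* was 19.1 to 23.7 CPM. Of the 28 members tested, 8 lay above both controls (background 13.6%) and 2 below (background 17.9%). IntC held 84, 70, 52 and 32 nuclei in the 4 mice.

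Summed over all kept nuclei, the level also moves with the mix of cells, and fewer cells of a type and less RNA per cell cannot be told apart in such a sum. *Wnt4* was 56.1 and 79.2 CPM in controls and 32.3 and 31.3 CPM in knockouts, without overlap (log2 fold change −1.04, SE 0.20, adjusted p = 0.973 by edgeR). IMCD-like nuclei, in which *Wnt4* was level, made up 2.77% and 4.09% of the kept control nuclei and 1.39% and 1.62% of the kept knockout nuclei, and DMEP nuclei 0.827% and 1.71% against 0.388% and 0.502%. The cortex was trimmed from each slice, and how much of each region a slice held was not measured. *Wnt9b* overlapped, at 6.51 and 15.8 CPM in controls and 4.94 and 6.96 CPM in knockouts. Of 56 members tested over all nuclei, 14 lay below both controls (background 19.1%) and 4 above (background 12.5%). None was called by edgeR (background 0%), and 4 had an unadjusted p under 0.05 (background 4.93%), which besides *Wnt4* were *Lgr5*, *Nkd1* and *Sfrp1*.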

How the data were processed

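Raw gene-by-barcode UMI counts of 4 libraries, 1 per mouse, were used as the authors deposited them. Per the labels, nuclei were profiled with 10x Genomics 3′ v3.1 chemistry, and the submitters' processing notes name Cell Ranger 3.0.2 and mm10. Whether intronic reads were counted is not given in the sources used here.

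A nucleus was kept if its barcode was among the 10000 with most UMIs of its library, held between 500 and 4000 genes and had less than 5% of its UMIs from mitochondrial genes (27343 nuclei). Nuclei were integrated by canonical correlation and clustered with Seurat 5.3.0 (2000 variable genes without the 15 Wnt members among them, 30 dimensions), and CD-PC nuclei were re-clustered (5 neighbours, resolution 0.2). Clusters were named from marker lists, and the limits for naming, damage and mixing were set after the clusters were seen. No doublets were removed for the values given, and leaving out the highest doublet scores was an alternative.

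UMI counts were summed per mouse and class and given as CPM. Where the 4 mice together gave 10 UMIs or more, a gene entered edgeR 4.0.16 (TMM, quasi-likelihood test, in R 4.3.3), with Benjamini-Hochberg adjustment over all genes of a class and 0.05 as the threshold. The difference between Aqp3-high and IMCD-like nuclei was a class-by-genotype term over 8 sums with mouse and class as further terms. The procedure was run on simulated sums with a fixed spread between mice. That run does not show how the test performs at the spread of the real mice. In its snRNA-seq data the study compared pooled nuclei with a Wilcoxon test, but nuclei of 1 mouse are not replicates. The study also reported lower *Wnt9b* in outer medullary collecting ducts by in situ hybridization, with a t test on values per mouse. It ran bulk RNA-seq of whole kidneys as well, and neither experiment is part of the data used here. Alternatives were DESeq2 1.42.0, its size factors, no filter, the replicate number as a block, other clusterings, under 1% mitochondrial UMIs, and each mouse left out. The count of members below both controls under these settings was added after seeing the data. With 2 mice per genotype an exact permutation test of 1 value cannot reach 0.05.

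The members, the other pathway genes and the tests were chosen with earlier results of these data known. Named genes are *Wnt9b*, *Wnt4* and *Tfap2a*, members called in a class or, in CD-PC classes, with an unadjusted p under 0.05 and no overlap between genotypes, up to 6 members per role with most UMIs, and the 5 genes most like each ligand. Others that are named were chosen after their values were seen. Promoter sequences are from RefSeq on GRCm38.p6.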

Additional observations from a re-analysis of the deposited data

How the results depend on the processing

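No member was called in Aqp3-high principal cells under any alternative run. Over all classes the number called went from 0 to 1 without the filter on low counts, 1 in nuclei with under 1% mitochondrial UMIs and 2 with the replicate number as a block, and to between 0 and 3 when 1 mouse was left out, where the lone mouse of a genotype is assumed to vary like the others. In all of these with a call *Sfrp4* in IntC was called, whose 20 UMIs all came from knockout 2. *Rnf43* in tL was called with the block (adjusted p = 0.00854, edgeR) and without control 1, and *Lef1* in EC without control 1 (-2.34, adjusted p = 6.0e-04, edgeR).

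*Fzd4* in Aqp3-high nuclei was -0.17 without knockout 2, and *Tcf7l2* -0.08 without knockout 1. *Wnt9b* in Aqp3-high nuclei kept its direction, from -1.29 to -0.82, with adjusted p of at least 0.403 by edgeR or DESeq2, and was -1.10 (SE 0.70) by DESeq2. The difference of *Wnt9b* from IMCD-like nuclei ranged from -2.13 to -1.06. *Tcf7l1* in Aqp3-high nuclei also kept its direction, from -0.99 to -0.50. The unadjusted p of *Wnt9b* and *Tcf7l1* in Aqp3-high nuclei did not stay under 0.05 in all settings. Among other settings, it was 0.114 and 0.0960 by DESeq2, and 0.173 and 0.255 by edgeR in nuclei with under 1% mitochondrial UMIs. With 1 mouse left out, the log2 fold changes were -1.29 to -0.84 for *Wnt9b* and -0.99 to -0.57 for *Tcf7l1*. Mice with the same replicate number deviated together (correlation 0.229 in Aqp3-high and 0.374 in IMCD-like nuclei), but the labels do not say what a number shares, so the samples were not taken as pairs. With the replicate block *Wnt9b* was -1.10 in Aqp3-high nuclei (adjusted p = 0.403) and 0.58 in IMCD-like nuclei, with a difference of -1.71 (adjusted p = 0.234, edgeR).

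*Wnt4* in IMCD-like nuclei, near 0, was 0.0873 under 1% mitochondrial UMIs and -0.107 to 0.0761 with 1 mouse left out. With 1 mouse left out, *Wnt4* in Aqp3-high nuclei was -0.435 to 1.04 and its difference from IMCD-like nuclei -0.503 to 1.07, both negative without knockout 2 alone. *Wls* in Aqp3-high nuclei was 0.0789 under 1% mitochondrial UMIs and -0.80 to 0.30 with 1 mouse left out. Members below both controls numbered 4 under 1% mitochondrial UMIs, where control 1 keeps 3 nuclei, and 10 to 15 with 1 mouse left out, where 30.1 to 37.8% of all genes lay so, against 9 and 15.8%. The causes were not tested.

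Thinned to 1000 UMIs, the share of nuclei with a *Wnt9b* UMI was 12.2% in IMCD-like and 8.55% in Aqp3-high nuclei, and with a *Wnt4* UMI 55.4% and 4.93%, since fewer UMIs are read. The control mean of Aqp3-high nuclei became, over all 4 mice or less the free RNA level, 77.4 or 97.3 CPM for *Wnt9b* and 53.2 or 7.43 CPM for *Wnt4*. The subtraction takes off what a class would have if all its UMIs were free RNA, so it can take off too much. Under 50 UMIs were read for 10 of 19 ligands and 5 of 10 secreted antagonists.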

Other observations

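*Tcf7l1* lay below both control mice in 6 of the 13 classes in which it was tested, namely the CCD-like and Aqp3-high classes, CNT, DCT, TAL and PT, a pattern noticed after the values were seen. Of all genes, 15.4% lay so in the CCD-like and 15.8% in the Aqp3-high class, and the share that lay so in as many classes was not counted. DCT, TAL and PT lie outside the Cre lineage. In DCT it was 50.3 and 80.0 CPM in controls and 24.8 and 30 CPM in knockouts, and in CNT 38.4 and 91.0 CPM against 18.8 and 37.0 CPM. In the CCD-like and Aqp3-high classes its log2 fold changes were -1.04 and -0.72, beside -1.25 in DCT, -1.22 in CNT, -0.55 in TAL and -0.74 in PT, and no adjusted p passed the threshold (edgeR). The free RNA level of *Tcf7l1* was 18.2 to 20.6 CPM, above its level in PT and near that of knockout 1 in CNT. The classes come from the same 4 libraries and are not independent.

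The thick ascending limb, which lies outside the Cre lineage, had *Sfrp1* at 113 and 68.6 CPM in controls and 224 and 124 CPM in knockouts (log2 fold change 0.93, SE 0.35, adjusted p = 1 by edgeR). Control 2 was within the free RNA level of *Sfrp1* (35.2 to 81.6 CPM), and nuclei of CNT, which hold *Sfrp1*, made up 2.21% and 2.17% of the kept control nuclei and 3.53% and 2.95% of the kept knockout nuclei. Their part in the result was not tested. *Rnf43* in tL was 76.6 and 212 CPM in controls and 77.3 and 66.7 CPM in knockouts, so that control 2 stood apart.

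The cluster of 80 nuclei led by *Sox17* held *Lef1*, *Dkk2* and *Lgr5* together, at 975, 671 and 497 CPM, whereas EC with *Kdr* had 16.1, 322 and 0 CPM of them (control mice pooled). It made up between 0.162% and 0.571% of the kept nuclei of a mouse.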
